A study of Homo sapiens with 14 samples.

Results

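The genes examined here encode the proteins of the cytosolic ribosome. They were taken from the RefSeq gene table of GRCh38.p14 as the protein-coding genes whose symbol is RPL or RPS plus digits with at most 1 further letter A or X, plus RPSA, RPLP0, RPLP1 and RPLP2. This gave 77 of 20037 protein-coding genes, 46 of the large and 31 of the small ribosomal subunit, spread over 21 chromosomes with 12 of them on chromosome 19. The rule used names only and no measured value. Their spans have a median of 5.01 kb, against 24.1 kb for all protein-coding genes.

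Binding was mapped by chromatin immunoprecipitation and sequencing (ChIP-seq) in HS-SY-II, an established synovial sarcoma cell line that the labels give as WT in every library. One antibody was to GLTSCR1, a subunit of GBAF, one of the BAF family of chromatin remodellers, and the other was to the HA tag of a tagged SS18::SSX fusion oncoprotein. How the tag was introduced is not given in the sources used here. Cells received DMSO, or WA-68 at 100 nM, a PROTAC degrader of the GBAF subunit BRD9, with 12, 24, 48 and 96 h of exposure for GLTSCR1 and 12, 24 and 48 h for the fusion. Each of these 9 groups was 1 library, so nothing below is a test between conditions and every interval covers counting error only. The time of the DMSO harvest is not in the labels, so time in culture and time of WA-68 cannot be told apart.

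Each cell must make ribosomal proteins in equal amounts, and their genes are among the most strongly transcribed in dividing cells. Their promoters are short, most lack a canonical TATA box, and their transcripts usually begin with a C followed by an unbroken run of pyrimidines, the 5′ terminal oligopyrimidine (TOP) tract through which mTOR signalling controls their translation. BRD9 is a bromodomain protein found with GLTSCR1 in GBAF, and SS18 is shared by GBAF and the BAF complex, which is how the fusion enters these complexes.

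RefSeq gives a start site and the promoter around it for 62 of the 77 genes, and 15 had no entry in the table. A TOP tract, taken as C at the start base and only C or T over the first 5 bases, was present in 42 of 62 (67.7%), against 4.60% of 15842 protein-coding promoters. The stretches of 200 bases before and 20 after the start are printed for genes that show the different outcomes described below. Over the span with 1 kb either side, RPS6, RPS13, RPL41 and RPLP1 had GLTSCR1 in all 5 libraries. RPS23 had one of the highest GLTSCR1 folds in DMSO and lost its call at 48 h. RPL24 was called at 12 h alone, and RPS25 was called in no library. The promoter around the start was called throughout for RPS6 only. That of RPL41 had no GLTSCR1 call at 48 h, and those of RPS13 and RPLP1 had none at 24, 48 or 96 h. Sequences run 5′ to 3′ on the gene's strand (RefSeq, GRCh38.p14). Capitals mark the TOP tract, which begins 20 bases from the end, and matches to CCGGAAGT (the core bound by ETS factors such as GABPA) or AAGATGGC (the YY1 core) on either strand. In RPL24 the TOP tract runs straight into a match to the YY1 core. CACGTG and TATAAA would be marked likewise but occur in none of these stretches.
RPS6, chr9:19380217-19380436, minus strand: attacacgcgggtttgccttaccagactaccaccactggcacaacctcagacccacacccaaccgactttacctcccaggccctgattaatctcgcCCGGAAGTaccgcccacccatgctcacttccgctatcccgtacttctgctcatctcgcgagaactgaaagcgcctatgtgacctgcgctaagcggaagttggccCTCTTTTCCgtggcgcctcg
RPS13, chr11:17077648-17077867, minus strand: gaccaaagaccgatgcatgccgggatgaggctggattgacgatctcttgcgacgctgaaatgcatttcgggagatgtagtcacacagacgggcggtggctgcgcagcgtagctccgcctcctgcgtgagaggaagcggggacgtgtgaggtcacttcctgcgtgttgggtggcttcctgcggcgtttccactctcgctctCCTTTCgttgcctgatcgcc
RPL41, chr12:56116433-56116652, plus strand: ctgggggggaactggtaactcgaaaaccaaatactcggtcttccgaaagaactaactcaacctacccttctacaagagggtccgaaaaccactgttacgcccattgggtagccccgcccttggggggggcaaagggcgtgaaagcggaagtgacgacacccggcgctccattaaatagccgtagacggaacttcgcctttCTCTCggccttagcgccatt
RPLP1, chr15:69452618-69452837, plus strand: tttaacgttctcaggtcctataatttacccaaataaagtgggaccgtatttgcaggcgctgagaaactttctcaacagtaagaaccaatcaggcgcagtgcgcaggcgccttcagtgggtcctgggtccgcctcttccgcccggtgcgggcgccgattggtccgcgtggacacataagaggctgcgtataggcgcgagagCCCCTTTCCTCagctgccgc
RPS23, chr5:82278335-82278554, minus strand: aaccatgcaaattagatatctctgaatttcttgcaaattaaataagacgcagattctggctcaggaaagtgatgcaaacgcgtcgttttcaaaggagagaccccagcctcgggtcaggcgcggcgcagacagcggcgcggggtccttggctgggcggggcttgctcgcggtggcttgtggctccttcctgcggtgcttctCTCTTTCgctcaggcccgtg
RPL24, chr3:101686699-101686918, minus strand: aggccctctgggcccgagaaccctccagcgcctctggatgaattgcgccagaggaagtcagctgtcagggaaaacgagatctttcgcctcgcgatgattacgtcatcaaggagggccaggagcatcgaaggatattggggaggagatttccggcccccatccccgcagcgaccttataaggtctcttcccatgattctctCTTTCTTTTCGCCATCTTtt
RPS25, chr11:119018324-119018543, minus strand: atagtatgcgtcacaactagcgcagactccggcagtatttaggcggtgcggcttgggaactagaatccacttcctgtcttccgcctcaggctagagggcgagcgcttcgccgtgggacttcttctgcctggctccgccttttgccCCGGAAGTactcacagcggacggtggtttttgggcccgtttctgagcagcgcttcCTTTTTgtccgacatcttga

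Over the 250 bases before and 50 after the start, CCGGAAGT was found in 9 of 62 promoters (14.5%, against 6.19% of all protein-coding promoters) and AAGATGGC in 6 (9.68%, against 3.91%), on either strand. The GC box GGGCGG was in 34 (54.8%, against 58.5%), the E-box CACGTG in 3 (4.84%, against 8.88%) and TATAAA in 5 (8.06%, against 9.63%). CTTTCC, which overlaps many TOP tracts, stood on the gene's strand in 25 (40.3%, against 14.5%). These are matches of letters only.

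A gene was counted as called when a peak region of that library overlapped its span, with 1 kb either side, by at least 1 bp. GLTSCR1 was called over 63 of 77 ribosomal protein genes in DMSO (81.8%, 95% exact interval 71.4 to 89.7), against 37.3% of all protein-coding genes. At 12 h it was called over 64 (83.1%, 72.9 to 90.7), against 33.4% of all. The count was 42 at 24 h (54.5%, 42.8 to 65.9; all genes 23.7%) and 18 at 48 h (23.4%, 14.5 to 34.4; all genes 18.2%). It was 29 at 96 h (37.7%, 26.9 to 49.4; all genes 23.4%). Ribosomal protein genes thus carried GLTSCR1 at a share above that of all genes in DMSO and at 12, 24 and 96 h, where their interval lay above the background, while at 48 h the interval included it.

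The lists differed in length, with 13677 regions at 48 h, against 18037 in DMSO. Cut to the 13677 strongest regions each, the 5 lists gave 58, 60, 40, 18 and 27 ribosomal protein genes in order of time, against 31.7%, 30.6%, 22.1%, 18.2% and 21.5% of all genes. Peak lists do not give the sequencing depth, and a gene without a call is one where no peak passed the threshold, so absence of the protein is not shown.

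The fusion was called over fewer of them. It lay over 37 in DMSO (48.1%, 36.5 to 59.7), against 24.2% of all genes, and over 27 at 12 h (35.1%, 24.5 to 46.8), against 23.9%. At 24 h the count was 18 (23.4%, 14.5 to 34.4; all genes 21.6%), and at 48 h it was 21 (27.3%, 17.7 to 38.6; all genes 23.5%). The interval lay above the background in DMSO and, by a small margin, at 12 h, and included it at 24 and 48 h. At 12 h the interval included the background over the RefSeq promoter, with 10 of 62 genes (16.1%, 8.02 to 27.7), against 9.72%. It also did so among the 42 genes without a neighbouring span, where 33.3% (19.6 to 49.5) stood against 23.9% of all genes. Fewer genes enter both settings, which widens the interval, and in each the share stayed above the background.

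**Figure D1:**
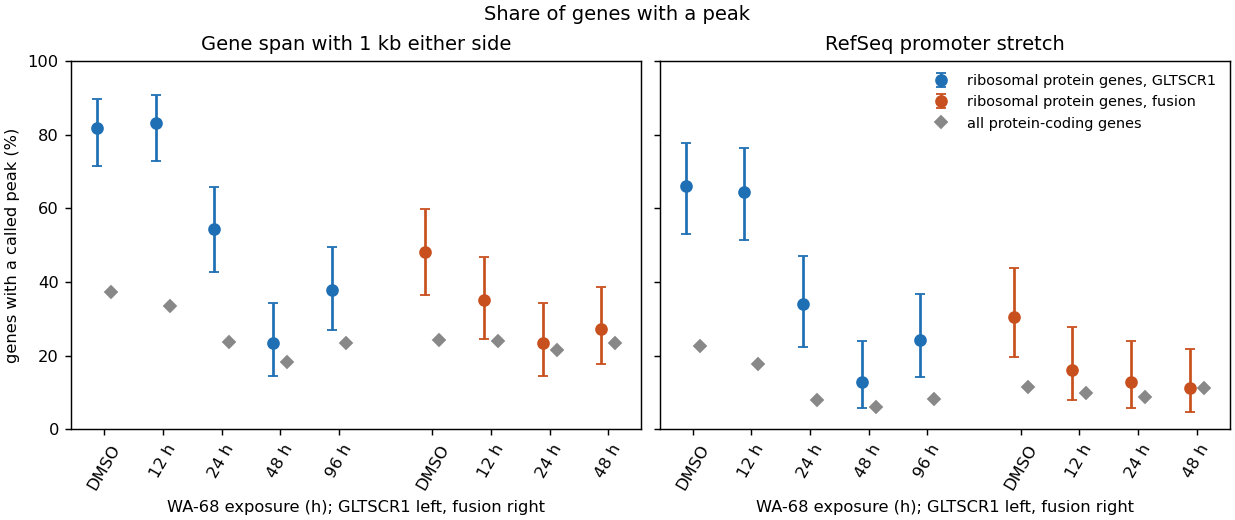
Share of ribosomal protein genes (circles, with exact 95% intervals for counting error) and of all protein-coding genes (grey diamonds) with a called peak, in percent, by library, over the gene span with 1 kb either side (left panel) and over the RefSeq promoter (right panel). For GLTSCR1 the circles stand at 81.8% in DMSO and 83.1% at 12 h and at 23.4% at 48 h, against 18.2% of all genes.

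The RefSeq promoter has the same length in every gene, and GLTSCR1 counts over it alone were also lowest at 48 h. GLTSCR1 was called over 41 of 62 promoters in DMSO (66.1%, against 22.5% of all promoters) and 40 at 12 h (64.5%, against 17.6%). The 24 h library had 21 (33.9%, against 7.94%), the 48 h library 8 (12.9%, 5.74 to 23.9, against 5.95%) and the 96 h library 15 (24.2%, against 8.21%). The fusion was called over 19 in DMSO (30.6%, against 11.5%) and over the 10 at 12 h already given. Its 24 h library had 8 (12.9%, against 8.86%) and its 48 h library 7 (11.3%, against 11.3%), so that for the fusion the promoter count was lowest at 48 h and the span count at 24 h. Pseudogenes named after these genes, most of them copies of the mRNA without its promoter, had a GLTSCR1 call in 15 of 1966 cases at 48 h (0.763%), against 23 in DMSO (1.17%). The fusion was called over 31 of them at 48 h (1.58%), against 26 in DMSO (1.32%). Reads from exons can be shared with such copies.

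Of the 63 genes with GLTSCR1 in DMSO, 54 were called at 12 h (85.7%, 74.6 to 93.3), against 74.1% of all DMSO-called genes. The share was 61.9% at 24 h (39 genes; all 53.5%), 28.6% at 48 h (18 genes, 17.9 to 41.3; all 42.5%) and 44.4% at 96 h (28 genes; all 53.4%). The share of all genes lay just below the interval of the ribosomal protein genes at 12 h and just above it at 48 h. Few stayed at either extreme: 9 were called at every time (14.3%, 6.75 to 25.4; all 31.1%) and 5 at no later time (7.94%, 2.63 to 17.6; all 16.4%). The share of all genes lay above the first of these intervals and inside the second. Over the promoter alone, 32 of 41 were kept at 12 h (78.0%, against 58.2%) and 19 at 24 h (46.3%, against 30.8%). The 48 h library kept 8 (19.5%, 8.82 to 34.9, against 23.6%, so that here the interval included the background) and the 96 h library 14 (34.1%, against 31.4%). The promoter of RPS6 was the one kept at every time (2.44%, 0.0617 to 12.9, against 11.7%). Those of RPS14, RPS24 and RPS3A were kept at none (7.32%, 1.54 to 19.9, against 31.3%). Over the promoter the first interval included the background and the second lay below it.

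Between 24 and 48 h, 29 of the 42 calls were lost (69.0%), against 39.0% for all genes. Calls appeared at 5 of the 35 genes without one at 24 h, against 755 of 15285 over all genes. Between 48 and 96 h, 5 of 18 were lost (27.8%; all genes 17.6%). Calls appeared at 16 of the 59 genes without one at 48 h, against 1680 of 16384 over all genes. No ribosomal protein gene without GLTSCR1 in DMSO was called at 48 h (0 of 14, interval up to 23.2%), which is near the background of 3.82% of all genes without a DMSO call.

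The fold given for a gene is the authors' enrichment of its strongest summit over local background. The strongest region is chosen in each library separately, so the folds of a gene can come from different sites, some within the 1 kb flanks. A fold is set by the depth and background of its own library, so folds of different libraries show neither a rise nor a fall, and a gene's place within its list is given beside some of them. Folds without a library name run in order of time, DMSO first.

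GLTSCR1 was called over 9 ribosomal protein genes in all 5 libraries. RPL23, a protein of the face between the subunits (chromosome 17, 38847860 to 38853721), had GLTSCR1 folds of 6.29 in DMSO and 12.2, 16.8, 7.33 and 3.84 at the later times. At 24 h it stood at the 99.4th percentile of the list, the highest place of any ribosomal protein gene in any library. RPL37 had 7.32, 7.71, 4.34, 6.32 and 6.51, and RPS13 had 9.36, 5.76, 6.14, 4.56 and 5.62. RPLP1, part of the stalk that recruits elongation factors, had 8.15, 5.83, 3.43, 6.10 and 4.03. RPS6, the best known substrate of S6 kinase, had 5.58, 5.46, 5.96, 5.96 and 4.19, and RPL3, which lies near the peptidyl transferase centre, had 5.41, 6.35, 6.52, 4.17 and 4.31. RPL41, the smallest of these proteins, had 6.60, 6.13, 5.31, 4.01 and 4.66. RPS27A, made as a fusion to ubiquitin, had 4.34, 10.9, 4.72, 4.56 and 4.69, and its 12 h value was at the 96.3rd percentile of that list.

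Several of the strongest DMSO peaks had no call at one or more later times. RPL23A, which sits at the exit of the nascent chain tunnel (chromosome 17, 28719985 to 28724359), had a fold of 16.1 in DMSO (98.9th percentile), 6.39 at 12 h and 4.10 at 96 h, with no call at 24 or 48 h. RPS23, a protein of the decoding centre, had 10.4, 5.36 and 7.99 up to 24 h, and no call at 48 or 96 h. RPL13 had 10.6 in DMSO and 5.64, 5.25 and 4.44 at 12, 48 and 96 h, and was missing at 24 h. The bridge protein gene RPL19 had 10.5, 6.57 and 5.50 up to 24 h, no call at 48 h, and 5.16 at 96 h. RPL21 had 10.1 in DMSO and 9.41, 4.26 and 5.56 at those times, again without a call at 24 h. Each of these genes had GLTSCR1 in DMSO and at 12 h, and they differed in which later libraries lacked it. RPL10, needed for the last steps of large subunit maturation (X chromosome), had 9.79, 13.2, 5.67 and 5.63 up to 48 h and none at 96 h; its 12 h value was at the 98.0th percentile.

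The 5 genes called in DMSO and never again were RPL8 (fold 5.62), RPS3A (5.29), RPS24 (4.51), RPS3, a protein of the mRNA entry channel (4.33), and RPS16 (3.87). All lay below 6.29, the median DMSO fold of the called ribosomal protein genes. The DMSO median fold of the 9 genes called throughout was 6.60. The most common course, shared by 16 genes, was a call in DMSO and at 12 and 24 h and none later. It included RPL5, RPLP0, RPS2, RPS7, RPS20, RPS23, RPS26 and RPS29. A further 9 had this course with a return at 96 h, among them RPL4, RPL35A, RPS18, RPS19 and RPSA.

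Calls that appeared under WA-68 came mainly at 12 h. Of the 14 genes without GLTSCR1 in DMSO, 10 were called at 12 h (71.4%, 41.9 to 91.6), against 9.32% of all genes without a DMSO call. RPL24 had a fold of 6.44, RPL38 6.28, RPL18 5.70, RPL12 5.58, RPL34 5.49, RPL11 5.43, RPL32 5.22, RPS27 4.48, RPL14 3.76 and RPL26 2.83. For RPL11, RPL12, RPL14, RPL18, RPL24, RPL26 and RPL34 this was the one GLTSCR1 call in 5 libraries. RPL38 and RPL32 were also called at 24 h, with folds of 4.68 and 4.75, and RPS27 at 96 h, with 4.91. RPLP2, a stalk protein gene, was called at 24 h alone (4.20). RPS15A, RPS21 and RPS25 had no GLTSCR1 call in any library.

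**Figure D2:**
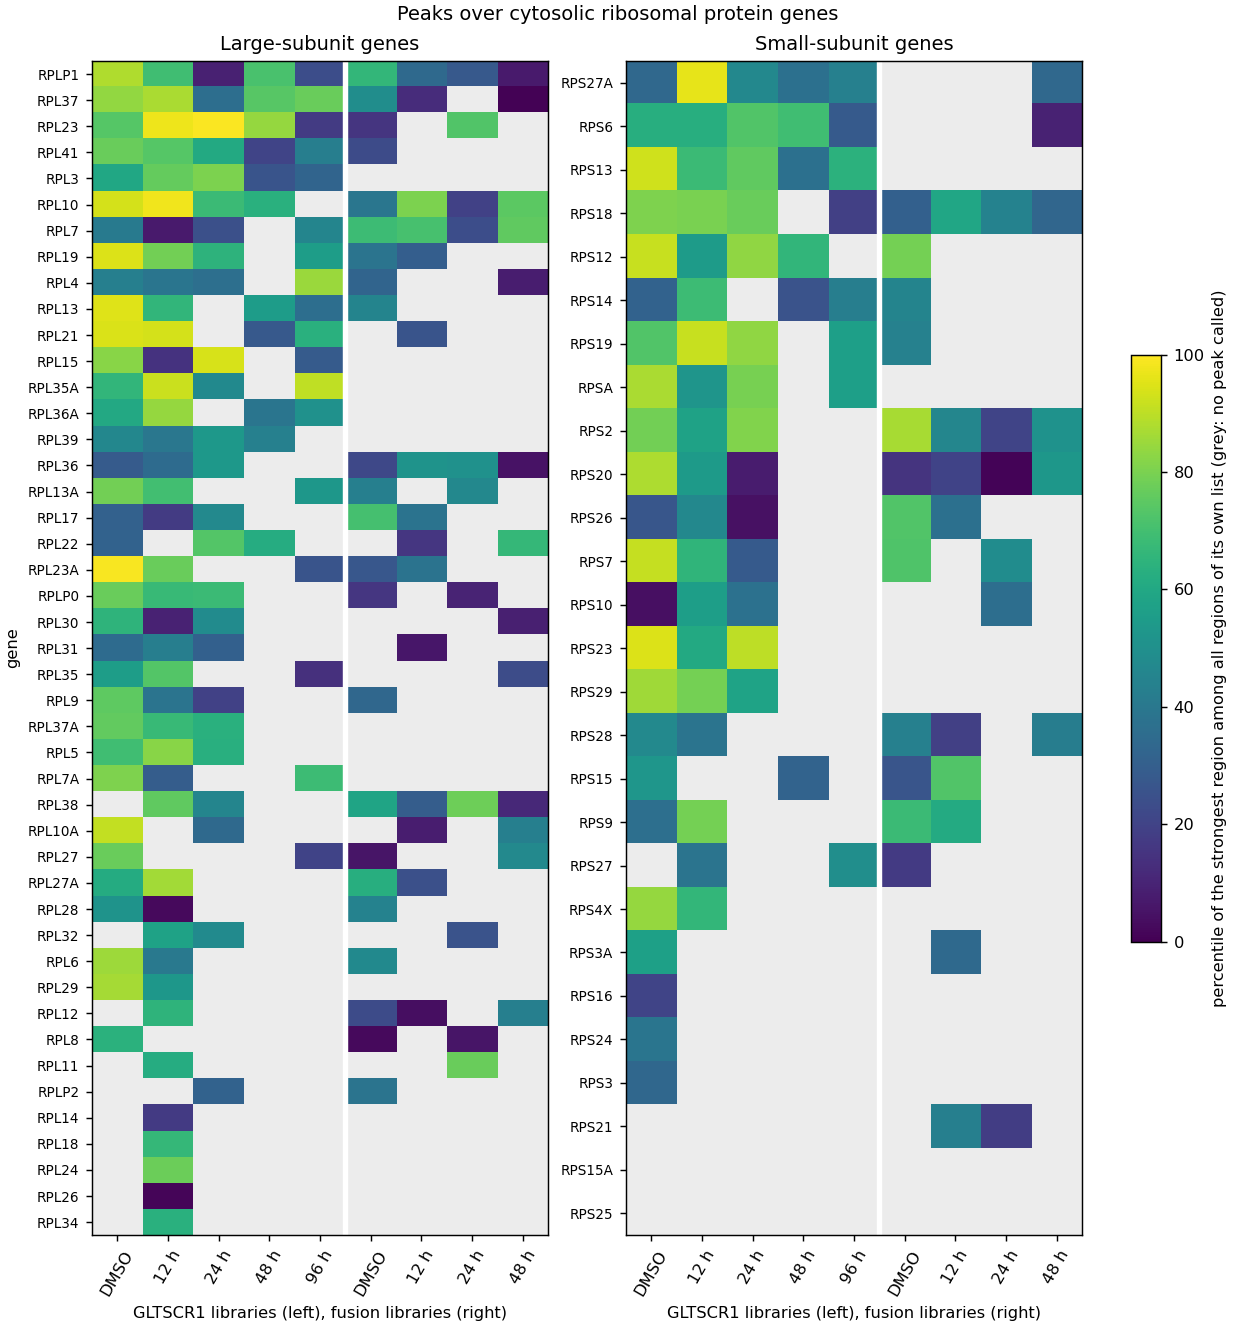
Ribosomal protein genes in rows, large subunit in the left panel and small subunit in the right, against the 5 GLTSCR1 and 4 fusion libraries in columns. Colour is the percentile of the gene's strongest region among all regions of its own list and grey is no call. Most rows are filled in the GLTSCR1 columns for DMSO and 12 h and few at 48 h, and RPL23 is brightest at 24 h, at the 99.4th percentile.

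Within their lists the GLTSCR1 regions over ribosomal protein genes had median percentiles of 73.7, 65.8, 55.6, 49.4 and 45.6 in order of time. Over all called genes it was 66.2, 64.6, 64.6, 66.3 and 63.5. For the fusion the ribosomal protein medians were 43.3, 34.1, 26.8 and 33.7, against 57.0, 59.0, 62.7 and 60.4 over all called genes. Of the 37 fusion regions in DMSO, 27 lay in the lower part of the list, under the 50th percentile. The median width of the GLTSCR1 regions was 823, 636, 472, 386 and 415 bp in order of time, against 661, 522, 458, 397 and 438 bp over all called genes. None of the strongest regions over ribosomal protein genes exceeded 5 kb. Over all called genes such regions made up 2.16% for GLTSCR1 in DMSO and 0.768 to 1.37% later, and 6.38 to 7.70% for the fusion.

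The fusion was called over 9 ribosomal protein genes in all 4 libraries, 24.3% of its 37 DMSO genes (11.8 to 41.2), against 55.0% of all its DMSO genes. A further 11 had the fusion in DMSO and never later (29.7%, 15.9 to 47.0; all 15.4%). Of the 37, 19 were called at 12 h (51.4%; all 71.0%), 14 at 24 h (37.8%; all 67.6%) and 14 at 48 h (37.8%; all 71.5%). The share of all genes lay above the interval of the ribosomal protein genes at each of these times (34.4 to 68.1 at 12 h, and 22.5 to 55.2 at 24 and 48 h). Over the RefSeq promoter the fusion kept 5 of 19 genes at 12 h (26.3%, 9.15 to 51.2, against 48.3%), and 9 had it in DMSO and never later (47.4%, 24.4 to 71.1, against 30.5%). Both intervals include the background, with 19 genes counted in place of 37. At 24 and 48 h it kept 4 each (21.1%, 6.05 to 45.6), against 46.8% at 24 h and 54.0% at 48 h. None of the 19 had it in every library (interval up to 17.6%), against 31.0%.

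RPS2 had the highest DMSO fold of the fusion, 7.51 (87.1st percentile), and 4.40, 3.72 and 4.71 at 12, 24 and 48 h. RPL7 had 5.48, 5.49, 3.83 and 6.06, RPL10 had 4.24, 6.26, 3.68 and 5.97, and RPLP1 had 5.32, 4.02, 3.94 and 3.27. RPL38, RPS18, RPL36 and RPS20 were also called throughout. RPL38, which is known in mice for a role in the translation of Hox mRNAs, had fusion folds of 4.93, 3.89, 6.16 and 3.45. Genes with the fusion in DMSO alone included RPS12 (6.31), RPL6 (4.50), RPL13 (4.44), RPS14, the ribosomal gene of the 5q deletion syndrome (4.44), RPL28 (4.40), RPS19 (4.38), RPLP2 (4.20), RPL9 (4.06), RPL41 (3.75) and RPS27 (3.57). After RPS2 and RPS12 the next highest in DMSO were RPS26 (5.75), RPS7 (5.72), RPL17 (5.60), RPL7 and RPS9 (5.45). The RPL17 region lay in the flank beyond the 3′ end of the gene, with its summit 4976 bp from the start. RPS26 and RPS9 were called in DMSO and at 12 h, RPS7 in DMSO and at 24 h. RPS21 had the fusion at 12 and 24 h (4.30 and 3.65) and never GLTSCR1, and 24 genes had no fusion call in any library. No gene without the fusion in DMSO had it at all 3 later times.

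Both proteins were called over 33 ribosomal protein genes in DMSO (42.9%), against 17.8% of all genes, and over 22 at 12 h (28.6%, against 15.1%). The 24 h libraries shared 14 (18.2%, against 11.6%) and the 48 h libraries 7 (9.09%, against 12.2%). Among genes that carried GLTSCR1, the fusion was called at 52.4% of ribosomal protein genes in DMSO, against 47.8% of all. The ribosomal protein share was 34.4% at 12 h (all 45.2%), 33.3% at 24 h (all 48.8%) and 38.9% at 48 h (all 66.8%). In DMSO and in the 12 and 24 h libraries the exact interval of this share included the background, so neither side of it is shown. The 48 h interval ended at 64.3%, a little under the 66.8% of all genes. Region by region, a fusion region overlapped 26 of the 63 strongest GLTSCR1 regions in DMSO (41.3%, 29.0 to 54.4), against 59.3% of all GLTSCR1 regions. At 12 h it was 17 of 64 (26.6%; all 55.2%), at 24 h 7 of 42 (16.7%; all 54.1%) and at 48 h 5 of 18 (27.8%; all 66.7%). All GLTSCR1 regions include distal ones, so this background is broader than the genes. The genes with both at 48 h included RPL10, RPL22, RPL37, RPLP1, RPS27A and RPS6. In RPL22 these summits lay far from the start, at 13651 bp for GLTSCR1 and 13799 bp for the fusion. Over the RefSeq promoter alone, 1 gene had both at 48 h.

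Summits lay close to the start. Of the GLTSCR1-called genes with a known start, the strongest summit was within 1 kb of it in 14 of 15 at 48 h (93.3%), against 48 of 49 in DMSO (98.0%). Over all called genes the share was 39.1% at 48 h and 66.7% in DMSO. Ribosomal protein genes have shorter spans (median 5.01 kb, against 24.1 kb), and a short window leaves less room for a distant summit. The shares were not compared at equal span length. Few were on the start itself. In DMSO 2 of the 48 were within 100 bp (4.17%), 19 lay further upstream but within 500 bp (39.6%) and 21 lay further downstream but within 500 bp (43.8%). The median of all summits before the start was at −390 bp and that of all summits after it at 200 bp. Over all genes the shares within 1 kb were 6.95%, 33.3% and 32.5%, so few summits on the start itself was common to genes at large. At 48 h 1 of 14 genes had summits on both sides of the start (7.14%), against 23 of 48 in DMSO (47.9%). At 12, 24 and 96 h it was 48.0%, 32.3% and 18.2%. Over all genes the shares were 19.9% at 48 h and 32.0% in DMSO, with 27.0%, 19.0% and 19.0% at 12, 24 and 96 h. The 48 h share of ribosomal protein genes rests on 1 gene. Their strongest regions were also narrower at 48 h (median 386 bp, against 823 bp in DMSO), which leaves less room for summits on both sides. The part that width plays was not tested.

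At 12 h the strongest summit lay upstream in 14 of 48 (29.2%), against 23 of 48 (47.9%) in DMSO. Over all genes the upstream share was 48.1% at 12 h and 51.8% in DMSO. Among 38 genes with a summit within 1 kb in both libraries, the summit lay after the start at 12 h and before it in DMSO in 7 (18.4%; all genes 11.8%), and the other way in 2 (5.26%; all genes 9.20%). RPL3 had its strongest summit at 243 bp at 12 h, against −396 bp in DMSO, RPLP0 at 258 bp, against −414 bp, RPL9 at 283 bp, against −439 bp, and RPL35 at 208 bp, against −390 bp. The others were RPL27A, RPS14 and RPS9. A region can hold several summits, so such a difference can be a change in which of them is the stronger. The later libraries did not keep to this: the strongest summit lay upstream in 15 of 30 at 24 h (all genes 59.9%), in 10 of 14 at 48 h (71.4%; all genes 62.4%) and in 6 of 21 at 96 h (28.6%; all genes 56.6%). Against DMSO, summits lay after the start where they had been before it in 3 genes at 24 h, with 4 the other way, and in 2 at 48 h, with 5 the other way. At 96 h the counts were 5 and 0. Of fusion summits in DMSO, 6 of 22 lay within 100 bp of the start (27.3%; all genes 13.1%). The later fusion libraries varied, with 3 of 16 at 12 h (18.8%; all genes 10.7%) and 2 of 12 at 48 h (16.7%; all genes 16.0%). At 24 h it was 1 of 12 (8.33%), below the share of all genes. These counts are small and no interval was computed for them.

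**Figure D3:**
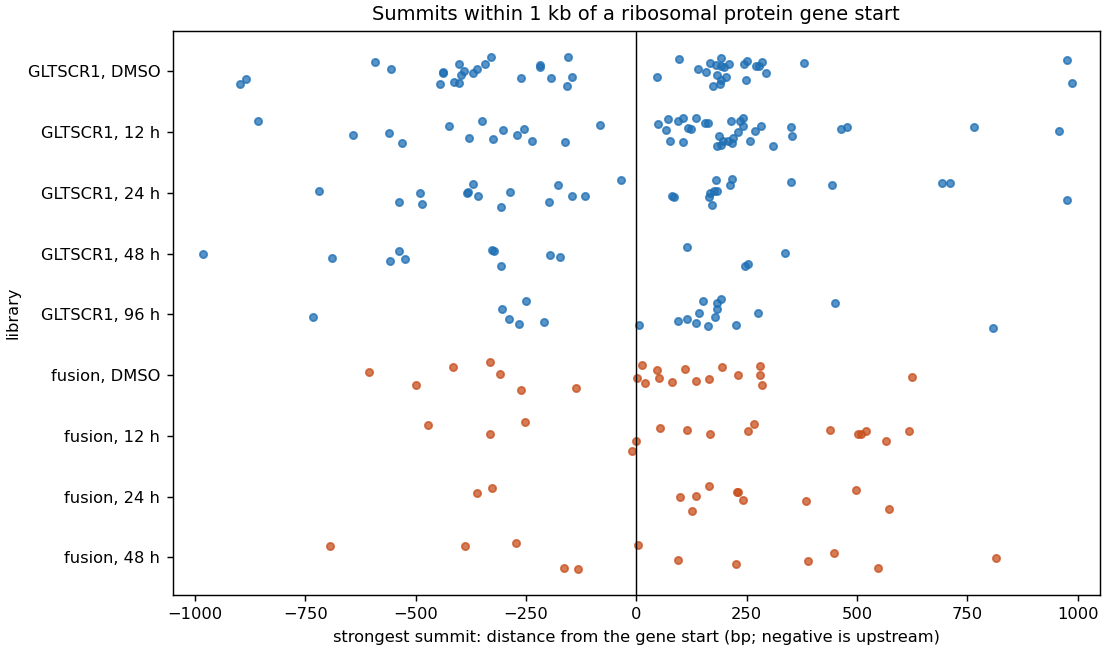
Distance in bp of the strongest summit from the RefSeq start, negative for upstream, for each ribosomal protein gene with a call and a summit within 1 kb, by library (GLTSCR1 blue, fusion orange). Points are jittered in height only. In DMSO the GLTSCR1 points form an upstream cloud with its median at −390 bp and a downstream cloud at 200 bp, with 2 points within 100 bp of the start.

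Counts of both subunits were lowest at 48 h. In order of time GLTSCR1 was called over 36, 41, 25, 11 and 19 of 46 large subunit genes, and over 27, 23, 17, 7 and 10 of 31 small subunit genes. At 12 h the large subunit stood at 89.1% (76.4 to 96.4) and the small at 74.2% (55.4 to 88.1), with overlapping intervals. Of the 10 genes without a DMSO call that were called at 12 h, 9 belong to the large subunit, as do 10 of all 14 genes without a DMSO call. GLTSCR1 was called in at least 1 library over 74 of the 77 genes, against 47.0% of all genes, and these were 46 of 46 large subunit and 28 of 31 small subunit genes. The fusion was called in at least 1 library over 53 (68.8%), against 37.3% of all genes.

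Of the 19 genes mutated in Diamond-Blackfan anaemia, a failure of red cell production, 14, 16, 10, 0 and 6 carried GLTSCR1 in order of time. The 0 at 48 h has an interval up to 17.6%, next to a background of 18.2%. RPL5 and RPL11, which with the 5S RNA hold MDM2 when ribosome assembly fails, were both called at 12 h, RPL5 also in DMSO and at 24 h, and neither at 48 or 96 h. Of the 3 stalk genes RPLP0, RPLP1 and RPLP2, GLTSCR1 was over 2, 2, 3, 1 and 1 in order of time and the fusion over 3, 1, 2 and 1. With 3 genes the interval for a count of 3 runs from 29.2% to 100.0%, and 24.2% of all genes had the fusion in DMSO. Of the 29 genes that host a small nucleolar RNA in their span, 9 carried GLTSCR1 at 48 h (31.0%), against 26 in DMSO (89.7%, 72.6 to 97.8). Of the 48 that host none, 9 did at 48 h (18.8%), against 37 in DMSO (77.1%, 62.7 to 88.0). The intervals of hosts and other genes overlapped.

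Another protein-coding span lay within the window of 35 of the 77 genes, so a peak there may belong to the neighbour. In order of time the 42 without such a neighbour had GLTSCR1 in 37 (88.1%), 33 (78.6%), 23 (54.8%), 13 (31.0%) and 16 (38.1%) cases. The share of all genes for GLTSCR1 was 37.3%, 33.4%, 23.7%, 18.2% and 23.4%. The fusion was over 19, 14, 9 and 10 of the 42 (45.2%, 33.3%, 21.4% and 23.8%), against 24.2%, 23.9%, 21.6% and 23.5% of all genes. Its interval lay above the background in DMSO (29.8 to 61.3) and included it at 12, 24 and 48 h. No region was the strongest of more than 1 ribosomal protein gene, so each called gene had a strongest region of its own. Sharing of weaker regions was not checked.

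Other genes of the translation machinery were counted by the same rule. Of 17 translation factors and other TOP mRNA genes, GLTSCR1 was over 13 (76.5%, 50.1 to 93.2), 15, 11, 7 (41.2%, 18.4 to 67.1) and 10 in order of time. EEF1A1 and EEF2, which encode elongation factors, HNRNPA1 and TPT1 were among the 7 called throughout. Of 24 ribosome biogenesis genes 19 (79.2%, 57.8 to 92.9), 14, 9, 3 and 5 were called. NCL and NPM1, which encode nucleolar proteins, were called up to 24 h. Of 77 mitochondrial ribosomal protein genes 43 (55.8%, 44.1 to 67.2), 36, 21, 11 and 18 were called. The share of all genes was 37.3%, 33.4%, 23.7%, 18.2% and 23.4%. At 48 h the mitochondrial (14.3%, 7.35 to 24.1) and biogenesis (12.5%, 2.66 to 32.4) shares were below it, with intervals that included it. The cytosolic list lay above the mitochondrial one in every GLTSCR1 library, with intervals that did not overlap in DMSO, at 12 h and at 24 h. The translation factor list stood above the cytosolic one at 12 h (88.2%, against 83.1%) and 24 h (64.7%, against 54.5%). It was also above it at 48 h (41.2%, against 23.4%) and 96 h (58.8%, against 37.7%), and below it in DMSO. Intervals of the translation factor and cytosolic lists overlapped in every GLTSCR1 library.

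Among the closest relatives, RPL7L1 and RPS27L, paralogs of RPL7 and RPS27, carried GLTSCR1 in all 5 libraries, and in the 8 paralogs as a whole the counts were 3, 4, 3, 2 and 3 in order of time. FAU, which encodes a ribosomal protein made as a fusion and falls outside the naming rule, had no call in any of the 9 libraries. RACK1, a protein bound to the small subunit, had GLTSCR1 in DMSO and at 12 h. In order of time the fusion was over 18, 15, 9 and 11 of the mitochondrial genes, 7, 10, 4 and 7 of the translation factor genes, and 6, 4, 4 and 4 of the biogenesis genes.

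**Figure D4:**
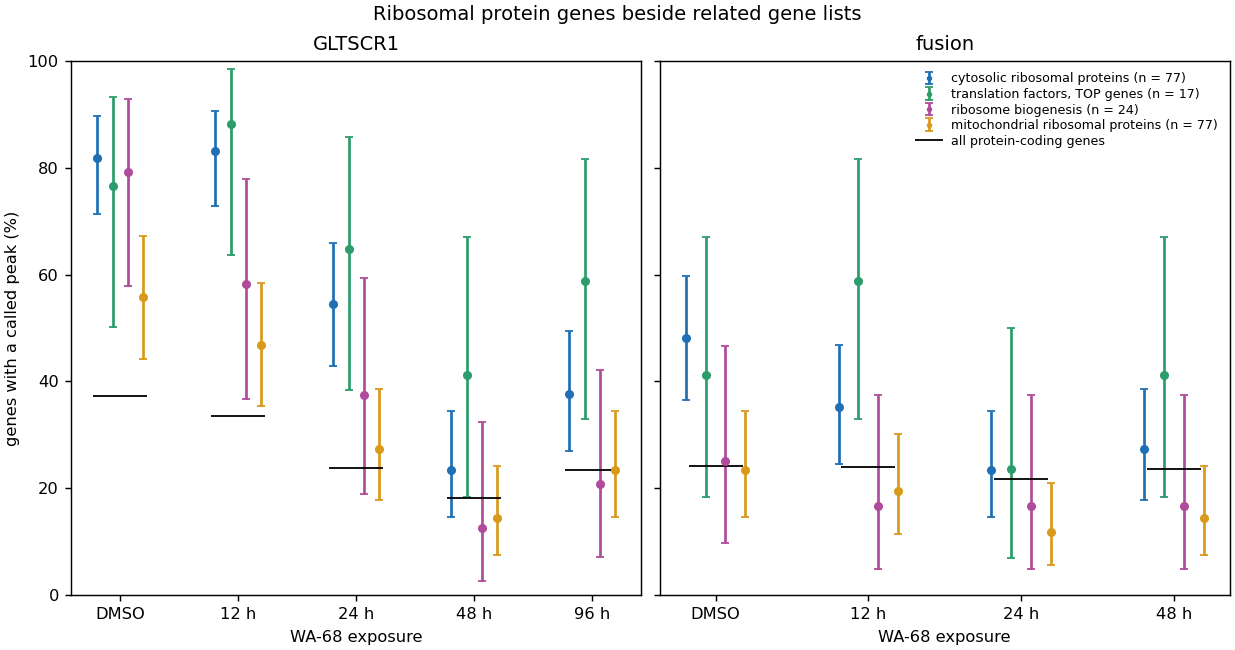
Percent of genes with a peak over the span with 1 kb either side, by library, for the cytosolic ribosomal protein genes, 3 related lists and all protein-coding genes (black bars). Error bars are exact 95% intervals for counting error. All 4 lists are lowest for GLTSCR1 at 48 h, where the cytosolic list stands at 23.4%.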

How the data were processed

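ChIP-seq libraries were grouped by antibody and treatment from their labels, 1 library a group. The deposited files were 9 peak lists on GRCh38, 1 for each library. BWA, MACS2, SAMtools, Picard, cutadapt, Trim Galore, FastQC, deepTools and bcl2fastq were named in the submitters' processing notes. Their settings were not given in the sources used here. Each deposited entry carries the authors' fold over local background (a linear ratio), −log10 p and −log10 q values, and a whole-number score made from −log10 q, whose lowest value was 3.00. The 5 input libraries were not analysed here.

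Entries with identical coordinates were joined and given the values of their strongest summit, on chromosomes 1 to 22, X and Y. Genes came from RefSeq (GRCh38.p14), and overlap of 1 bp with the span extended by 1 kb counted as a call. RefSeq promoters run from 250 bases before to 50 after the start. Shares carry exact Clopper-Pearson 95% intervals (Python 3.11.15, SciPy 1.17.1). Figures were drawn with matplotlib 3.10.9. The overlap code was tested on simulated data. With 1 library a group no test between conditions was made. Alternatives were other windows, summits in place of overlap, −log10 q of at least 5, lists of equal length, and genes without a neighbour. The genes, lists and rules were chosen with earlier results of these data known. Genes named by rule were the 8 strongest in DMSO for each antibody, those called in every library, in none or in DMSO alone, those without a DMSO call and with later calls, and those in the top 5% of a list. Other genes were named after their values were seen. The promoter as a second readout and the restriction of summits to 1 kb from the start were chosen after seeing the data. A few ribosomal protein genes are neither named nor drawn by name, although every count includes them.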

Additional observations from a re-analysis of the deposited data

Results flagged for a closer look

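Between DMSO and 12 h the count of ribosomal protein genes with a call had opposite signs of change for GLTSCR1 and the fusion. For GLTSCR1 it was 64 at 12 h, against 63 in DMSO, a difference of 1. For the fusion it was 27 at 12 h, against 37 in DMSO, a difference of −10. Over all genes the GLTSCR1 share was 33.4% at 12 h, against 37.3% in DMSO. The fusion share over all genes was 23.9% at 12 h, against 24.2% in DMSO. The GLTSCR1 difference turned negative over the RefSeq promoter (40 at 12 h, against 41 in DMSO), at −log10 q of at least 5 (59, against 61) and without genes that have a neighbour (33, against 37). The fusion count was lower at 12 h in each of these settings. Each count rests on 1 library, and the difference between the proteins was not tested.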

How the results depend on the processing

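Of 140 values recomputed under alternatives, 105 stayed within 1.5 times the reported count and 35 did not. None of the 35 arose with summits inside the window, 3 kb flanks, gene ends, lists of equal length or the DMSO region itself. The RefSeq promoter alone, with 62 genes in place of 77, gave 41, 40, 21, 8 and 15 genes for GLTSCR1 in order of time and 19, 10, 8 and 7 for the fusion. It gave 1 gene with GLTSCR1 in every library, 3 with it in DMSO alone, 0 with the fusion in every library, and 15, 6, 4 and 1 with both proteins. The 42 genes without a neighbouring span gave 37, 33, 23 and 16 for GLTSCR1 (DMSO, 12, 24 and 96 h), and 19, 14, 9 and 10 for the fusion. They gave 3 genes with the fusion in every library, 5 with it in DMSO alone, and 18, 10, 6 and 4 with both. Fewer genes enter both of these settings. With no flank, GLTSCR1 was called over 8 genes at 48 h and over 3 in every library, the fusion over 5 in every library, and both over 3 at 48 h. At −log10 q of at least 5 the fusion was called over 5 in every library, and GLTSCR1 over 12 at 48 h (15.6%), against 16.0% of all genes. For the settings without a flank and with the higher threshold the cause was not tested.

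No paired analysis was possible because each group held 1 library. Replicate error, sequencing depth and signal below the peak threshold are unknown, and neighbouring genes can share a peak.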
